A study of Cavia porcellus with 13 samples.

Results

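The respiratory chain of guinea pig skin was examined through 72 genes for its nuclear-encoded subunits and closely named factors. They were taken by symbol: every gene of the deposited table whose symbol, with case ignored, starts with NDUFA, NDUFB, NDUFS, NDUFV, SDHA to SDHD, UQCR, COX4 to COX8 or ATP5, and that reached 1 TPM (a length-scaled share of the transcripts in a library) in at least 2 of the 13 libraries. All 72 of the 72 genes matching by symbol passed that filter, out of 26855 genes in the table and 14979 that passed it. The symbol rule uses no difference between groups, but it was written with earlier results of these data known. By role they were 7 core and 20 accessory subunits of complex I with 8 of its assembly factors, 2 subunits and 2 assembly factors of complex II, 6 subunits of complex III, 16 of complex IV, the supercomplex factor COX7A2L, and 9 subunits of complex V with its regulator ATP5IF1. No row carried the symbol SDHA or SDHD, and those subunits are not analysed here. Other complexes were incomplete as well, with 20 of 28 listed accessory symbols of complex I, 6 of 9 of complex III and 16 of 19 of complex IV in the table. For complex V no row carried the symbol ATP5F1C, among others. Sums and counts by complex therefore cover only the subunits in the table.

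The skin came from guinea pigs, taken at day 4 after ticks attached, and the libraries fell into 5 groups. Naive skin was not bitten (3 libraries, carrying the same day), first exposure skin came from animals bitten for the first time (3), saliva immune skin from bitten animals that carry a label of immunity to saliva (3), and the last groups had 2 bites (2) or 3 bites (2) in their history. The title prefix, which the labels do not explain, splits the libraries into an experiment CK1 (naive replicates 1 and 2, first exposure, saliva immune; 8 libraries) and an experiment EF19-5 (naive replicate 3, 2 bites, 3 bites; 5 libraries). The sources used here give no strain, age or sex, nor the way of immunization. They also leave unsaid whether each library is a different animal; p-values therefore reflect variation among these samples alone, part of which may be technical. Between 13270 and 14391 genes reached 1 TPM per library, and read depth is unknown, since TPM does not keep it. Of 11 keratinocyte genes listed to check the tissue, 5 were in the table (KRT5, KRT14, KRT1, DSG1, DSP), and together they held 0.975% to 5.07% of the transcripts.

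The respiratory chain passes electrons from NADH and succinate through complexes I, II, III and IV to oxygen, pumping protons across the inner mitochondrial membrane, and complex V uses the proton gradient to make ATP. Skeletal muscle is rich in mitochondria and builds complex IV with its own forms of some subunits, among them COX6A2 in place of COX6A1 and COX7A1 in place of COX7A2, while most other tissues use the common forms. Skin biopsies can hold the thin muscle sheet under the skin, so the amount of muscle in each library was measured with 25 contractile genes of striated muscle (of 30 listed), none of which is a respiratory chain gene and none of which was at 0 throughout.

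That muscle content differed between libraries by far more than any respiratory chain sum did. The contractile genes held 6.32%, 11.0% and 1.66% of the transcripts in naive replicates 1 to 3 and 4.54%, 3.29% and 5.12% in first exposure replicates 1 to 3. In saliva immune replicates 1 to 3 they held 6.70%, 6.77% and 1.55%, in the 2 bites libraries 0.454% and 0.625%, and in the 3 bites libraries 1.03% and 0.558%. The EF19-5 libraries and saliva immune replicate 3 were thus the ones with little muscle, and all 4 bitten EF19-5 libraries lay below every other library.

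The summed level of the 72 genes was also low in the libraries with little muscle, within a much narrower range. It was 1.63%, 2.01% and 1.40% of the transcripts in naive replicates 1 to 3, 1.66%, 1.56% and 1.80% in first exposure, 1.96%, 2.21% and 1.38% in saliva immune, 1.24% and 1.304% in 2 bites and 1.23% and 1.24% in 3 bites skin. Naive skin had a mean of 1.68% ± 0.307 (SD, n = 3), first exposure skin 1.67% ± 0.119 (n = 3) and saliva immune skin 1.85% ± 0.422 (n = 3). Skin with 2 bites had a mean of 1.27% ± 0.0451 and skin with 3 bites 1.23% ± 0.00863 (SD, n = 2 each). The naive, first exposure and saliva immune groups overlapped, and the 4 bitten EF19-5 libraries lay below all 9 others. Without COX6A2 and COX7A1 the sum still ran from 1.21% in 3 bites replicate 1 to 2.03% in saliva immune replicate 2. Because these are bulk samples, more muscle cells and more mitochondrial RNA per cell cannot be told apart.

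**Figure D1:**
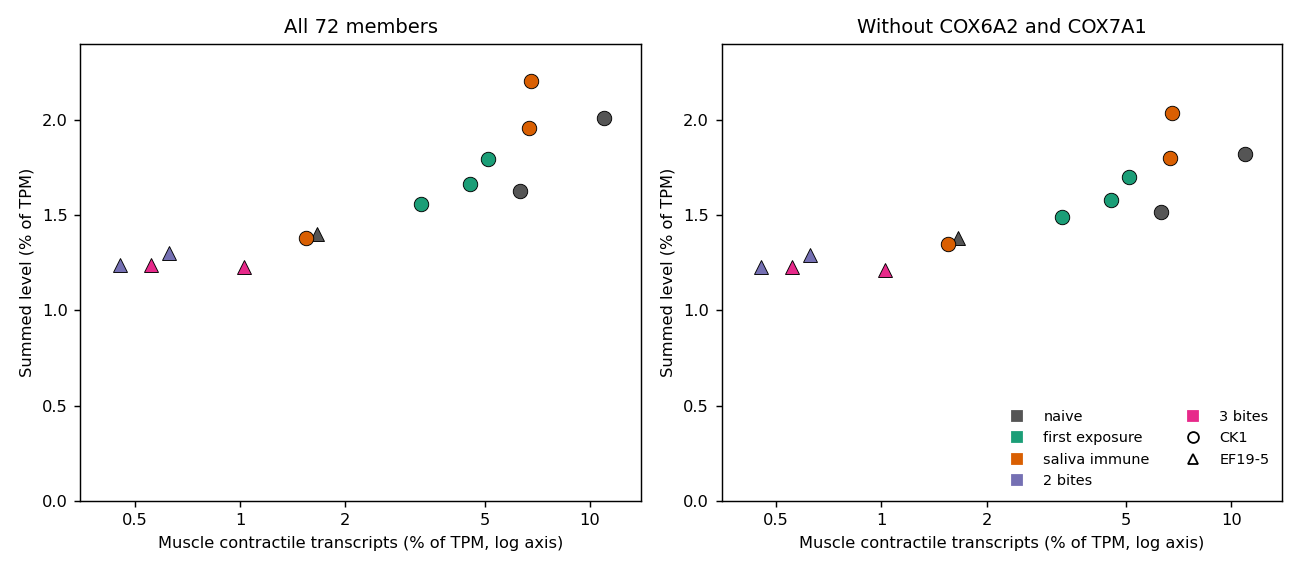
Each point is 1 library, with its muscle contractile transcripts (% of TPM, log axis) across and the summed level of the respiratory chain genes (% of TPM) upward, for all 72 genes on the left and without COX6A2 and COX7A1 on the right; colour gives the group and shape the experiment. The libraries with 0.454% to 1.03% contractile transcripts sit at 1.23% to 1.304% on the left, and saliva immune replicate 2 is the highest at 2.21%.

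By complex, subunits of complex I summed to 0.347% to 0.629% of the transcripts over the 13 libraries and those of complex III to 0.113% to 0.207%. Complex IV subunits summed to 0.329% to 0.695% and complex V subunits to 0.361% to 0.577%, while SDHB and SDHC of complex II held only 0.00982% to 0.0202%. ATP5F1B and ATP5F1A, the beta and alpha subunits of the catalytic head of ATP synthase, were the most abundant in their complex, with ATP5F1B between 876 and 1542 TPM and ATP5F1A between 687 and 1079 TPM. COX6C, a small subunit of complex IV, lay between 659 and 1344 TPM, and UQCR10, a small subunit of complex III, between 522 and 888 TPM. The assembly factors were lower, from NDUFAF2, between 1.98 and 3.99 TPM, to NDUFAF8, between 44.2 and 82.1 TPM. The lowest of all were COX6B2, a complex IV form known from testis, listed at 0 in 2 libraries and at most 2.83 TPM, and COX4I2, a form known from lung and induced by low oxygen, listed at 0 in 1 library and at most 3.35 TPM.

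Most of these genes varied little. Among the 70 above 0 in every library, the ratio of the highest to the lowest library had a median of 1.85, against 2.58 over the 14019 tested genes that were above 0 in every library. Those genes were not matched to the respiratory chain genes for expression level. NDUFB6, an accessory subunit of complex I, had the smallest ratio, 1.25. COX6A2 had the largest, 23.5, and COX7A1 the next, 17.5. Apart from that pair the largest was 4.21, for NDUFB2.

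COX6A2 and COX7A1, the muscle forms, set apart the libraries with muscle. COX6A2 was at 732, 1297 and 179 TPM in naive replicates 1 to 3, at 578, 490 and 738 TPM in first exposure and at 1101, 1186 and 220 TPM in saliva immune skin. It was at 66.8 and 72.0 TPM in the 2 bites and at 91.9 and 55.3 TPM in the 3 bites libraries. Within CK1 the naive and bitten libraries overlapped, while within EF19-5 all 4 bitten libraries lay below naive replicate 3. COX7A1 took the same course, with 333, 558 and 77.1 TPM in naive, 225, 212 and 247 TPM in first exposure, 482, 518 and 103 TPM in saliva immune, 31.8 and 34.0 TPM in 2 bites and 60.1 and 47.2 TPM in 3 bites skin.

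Their common partners varied less, between 64.4 and 109 TPM for COX6A1 and between 83.5 and 116 TPM for COX7A2. COX6A1 was at 70.0, 64.4 and 89.9 TPM in naive, 104, 99.8 and 91.8 TPM in first exposure, 73.5, 85.9 and 109 TPM in saliva immune, 78.1 and 91.3 TPM in 2 bites and 74.4 and 82.0 TPM in 3 bites skin. COX7A2 was at 83.5, 85.5 and 109 TPM in naive, 101, 116 and 116 TPM in first exposure, 94.9, 115 and 107 TPM in saliva immune, 97.7 and 107 TPM in 2 bites and 91.1 and 96.1 TPM in 3 bites skin. In CK1 all 6 bitten libraries lay above both naive ones for COX6A1 and for COX7A2, and in EF19-5 the naive library lay within the bitten range for COX6A1 and above it for COX7A2. Markers of some other cells were ordered in the same way in CK1. The neutrophil genes held 0.0220% to 0.225% of the transcripts in the 6 bitten and 0.00843% to 0.0122% in the 2 naive libraries. The monocyte and macrophage genes held 0.0246% to 0.0607% against 0.0118% to 0.0166%, and the white adipocyte genes 0.341% to 0.904% against 0.127% to 0.204%. The keratinocyte, fibroblast, T cell and endothelial genes overlapped between the bitten and naive CK1 libraries. The part of these cells in the 2 common forms was not tested. How many of all tested genes lay higher in all 6 bitten than in both naive CK1 libraries was not counted. With limma on CK1 alone, 15% of all tested genes had an unadjusted p under 0.05 in bitten against naive skin. The share of the 72 genes was 4.17%. As a share of the pair, COX6A2 made up 95.3% in naive replicate 2 and 40.3% in 3 bites replicate 2, and COX7A1 86.7% in naive replicate 2 and 24.1% in 2 bites replicate 2.

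**Figure D2:**
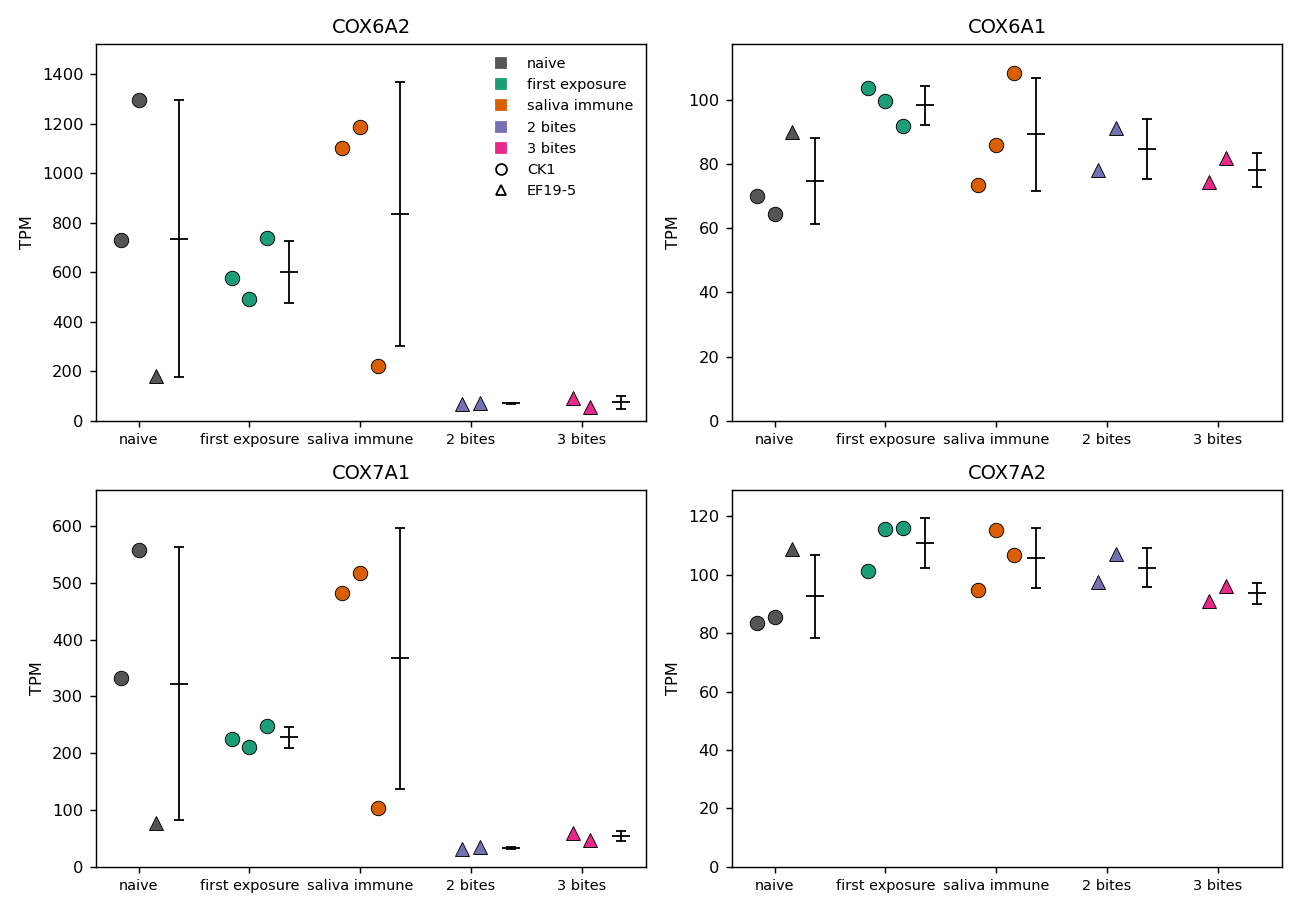
TPM of the muscle forms COX6A2 and COX7A1 (left) and of the common forms COX6A1 and COX7A2 (right) in each library by group, with the mean and SD beside the points; circles are CK1 and triangles EF19-5. COX6A2 runs from 55.3 to 1297 TPM while COX6A1 stays between 64.4 and 109 TPM.

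The log2 ratio of the muscle to the common form, computed within a library on values with 1 TPM added, was compared between 10 bitten and 3 naive libraries by exact permutation of the bitten label within each experiment (two-sided, 140 arrangements, smallest possible p = 0.00714, Benjamini-Hochberg over 4 pairs). The ratio was lower in bitten skin by a mean log2 difference of -1.13 for COX6A2 over COX6A1 (exact permutation p = 0.0714, adjusted 0.157) and of -0.95 for COX7A1 over COX7A2 (exact permutation p = 0.0786, adjusted 0.157), so neither passed the test. COX4I2 over COX4I1 (0.40, adjusted exact permutation p = 0.590) and NDUFA4L2 over NDUFA4 (0.19, adjusted exact permutation p = 0.657) did not pass either. NDUFA4 is a subunit of complex IV despite its name, and NDUFA4L2 is its relative induced by low oxygen. Between saliva immune and first exposure skin the 4 differences were 0.31, 0.45, 0.09 and -0.33 in the same order, with an adjusted exact permutation p of 0.9 each, where 3 libraries against 3 cannot go below 0.1. COX8B, the muscle form of COX8, has no row of that symbol, so the COX8 pair was not analysed here.

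Across libraries the muscle forms' ratios went with muscle content. Over the 13 libraries Pearson's r with the log2 of summed contractile TPM was 0.988 for COX6A2 over COX6A1 (Spearman's rho 0.973) and 0.979 for COX7A1 over COX7A2 (rho 0.967), each with an adjusted permutation p of 2e-05, where the raw 1e-05 is the smallest that 100000 permutations can give. Within the 8 CK1 libraries r was 0.979 and 0.957 by exact permutation (adjusted p = 0.000198 for both), and without 2 bites replicate 1 and 3 bites replicate 2, the libraries farthest from the median muscle content, it was 0.992 and 0.982. No correlation was computed within the 5 EF19-5 libraries. The other 2 of the 4 pairs ran the opposite way: r was -0.64 for COX4I2 over COX4I1 (rho -0.68; adjusted permutation p = 0.0266 for r and 0.0150 for rho) and -0.62 for NDUFA4L2 over NDUFA4 (rho -0.67; adjusted permutation p = 0.0271 for r and 0.0150 for rho). Within CK1 these were -0.64 (adjusted exact permutation p = 0.0785) and -0.80 (adjusted exact permutation p = 0.0162), and without the 2 farthest libraries -0.71 (adjusted permutation p = 0.0183) and -0.60 (adjusted permutation p = 0.0528). The COX4 ratio rests on a gene at 3.35 TPM or less.

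To set all 72 genes on the same footing, each gene's log2(TPM + 1) was fitted on muscle content with experiment as a further term, so that a slope of 1 means a doubling with each doubling of contractile transcripts; limma tested all 14979 genes and adjusted p-values over them by Benjamini-Hochberg. At an adjusted p under 0.05, 28 of the 72 respiratory chain genes rose with muscle content and 1 fell, where 5.53% of all tested genes rose and 12.7% fell. The median slope was 0.15 over the 72 genes and -0.12 over all tested genes, and 64 of the 72 slopes were positive. Median-of-ratios scaling moved the all-gene median to -0.01 and the split of all calls from 828 rising and 1905 falling to 1324 and 602; it gave 39 rising and 0 falling respiratory chain genes.

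Complex I had many small positive slopes. Of its 7 core subunits, which carry the electron path, 5 rose (NDUFS3, NDUFS7, NDUFS8, NDUFV1, NDUFV2), and of its 20 accessory subunits 9 rose, with all 27 slopes positive (0.05 to 0.25). NDUFS7, a core subunit that holds an iron-sulfur cluster, had a slope of 0.25 (SE 0.067, limma adjusted p = 0.0252) and ran from 69.3 TPM in 3 bites replicate 1 to 257 TPM in naive replicate 2. NDUFS3, another core subunit, had a slope of 0.19 (adjusted p = 0.0325) and NDUFV1, which carries the NADH site, 0.15 (adjusted p = 0.0476). The accessory subunits NDUFA3 (0.11, adjusted p = 0.153) and NDUFA8 (0.13, adjusted p = 0.105) did not pass, while NDUFS6 (0.21, adjusted p = 0.0215) and NDUFS5 (0.20, adjusted p = 0.0358) did.

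Of the 8 complex I assembly factors 3 rose: NDUFAF5, NDUFAF6 and NDUFAF4. NDUFAF5, which modifies the core subunit NDUFS7, had the largest slope after the muscle forms, 0.40 (SE 0.080, limma adjusted p = 0.00712). Its values were 45.8, 59.9 and 36.5 TPM in naive, 30.7, 26.1 and 36.1 TPM in first exposure, 40.2, 47.4 and 24.8 TPM in saliva immune, 31.2 and 21.8 TPM in 2 bites and 34.3 and 26.5 TPM in 3 bites skin. In EF19-5 the naive library lay above all 4 bitten ones, and in CK1 naive replicate 1 lay below saliva immune replicate 2 and above the other 5 bitten libraries.

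In complex II, SDHB, the iron-sulfur subunit, had a slope of 0.26 (adjusted p = 0.0646) and SDHC, a membrane anchor, 0.06 (adjusted p = 0.413), and neither passed; nor did the assembly factors SDHAF3 and SDHAF4. In complex III 5 of 6 subunits rose (UQCR10, UQCRB, UQCRC1, UQCRC2 and UQCRFS1). UQCRC2, a core protein of the matrix side, had a slope of 0.17 (SE 0.040, adjusted p = 0.0144) and UQCR10 of 0.18 (adjusted p = 0.0309), while UQCRQ, at 0.16, did not pass (adjusted p = 0.0765).

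Complex IV was the most divided. Of its 16 subunits 4 rose, COX6A2 with a slope of 0.91 (SE 0.083, limma adjusted p = 1.599e-05), COX7A1 with 0.84 (SE 0.094, adjusted p = 7.763e-05), COX5A and COX6C; COX6B2 fell, with a slope of -0.54 (SE 0.157, adjusted p = 0.0326), on values of 0 to 2.83 TPM. Those of COX6A2 and COX7A1 lay well above the slopes of every other respiratory chain gene, of which NDUFAF5 came nearest. The slopes of the other named members were not past the test: COX5B, which binds zinc, 0.16 (adjusted p = 0.0837), NDUFA4L2 -0.34 (adjusted p = 0.0928), COX6A1 -0.18 (adjusted p = 0.0937), COX8A, the common form of COX8, -0.12 (adjusted p = 0.0826), and COX7A2 -0.06 (adjusted p = 0.483). COX7A2L, which joins complexes III and IV into supercomplexes, had a slope of -0.09 (adjusted p = 0.215). The slopes of COX7A2, COX8A and COX7A2L turned positive under median-of-ratios scaling (0.06, 0.003 and 0.04).

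In complex V 2 of 9 subunits rose, all 9 slopes being positive. ATP5PD, a subunit of the peripheral stalk, had a slope of 0.24 (SE 0.054, limma adjusted p = 0.0114) and ATP5F1A of 0.20 (adjusted p = 0.0190), while ATP5F1B, at 0.19, did not pass (adjusted p = 0.0668). ATP5IF1, the inhibitor that stops ATP synthase from running backwards, had a slope of 0.21 (adjusted p = 0.0519).

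**Figure D3:**
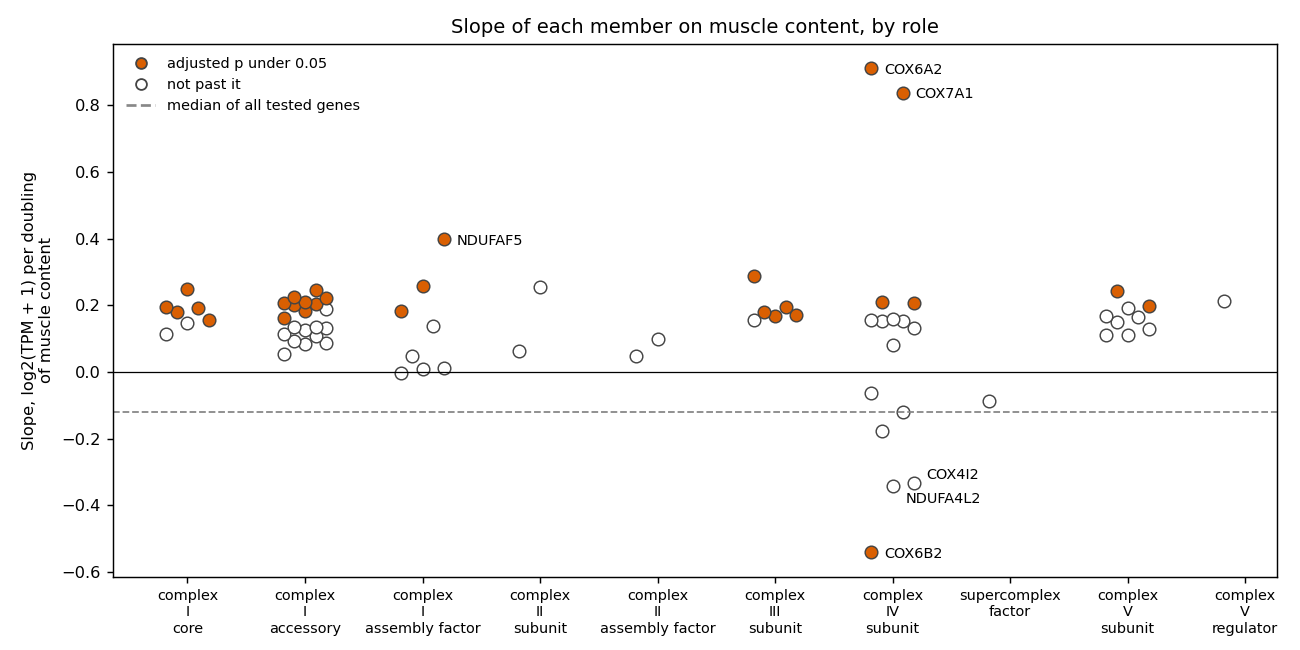
Slope of log2(TPM + 1) per doubling of muscle content for each of the 72 genes, by role; filled points have an adjusted p under 0.05 and the dashed line is the median of all tested genes, -0.12. COX6A2 at 0.91 and COX7A1 at 0.84 stand above the rest, and COX6B2 is the lowest at -0.54.

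How many genes passed depended on single libraries, for the respiratory chain and for all genes. Without saliva immune replicate 3 the count was 3 (COX6A2, COX7A1, NDUFAF5) and without naive replicate 2 it was 4 (the same and UQCRC2), without first exposure replicate 2 it was 12 and without naive replicate 3 it was 19, in place of 29. The calls over all tested genes were 773 (5.16%), 653 (4.36%), 1512 (10.1%) and 3047 (20.3%) in the same order, in place of 2733. COX6A2 and COX7A1 passed each time that 1 library was left out, with slopes of 0.85 to 0.96 and 0.79 to 0.90. Within CK1 alone 31 of 72 rose, against 6.38% of all tested genes, and 4 fell (COX6A1, COX6B2, COX8A, NDUFA4L2), where 28.9% of all tested genes fell. Within EF19-5, whose 5 libraries all have little muscle, limma called none of the 14979 genes at an adjusted p under 0.05, with 1065 of them and 3 respiratory chain genes (COX6A2, COX7A1, NDUFB2) at an unadjusted p under 0.05; there the slope of COX6A2 was 0.81 (adjusted p = 0.284) and that of COX7A1 0.64 (adjusted p = 0.348).

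Other genes of energy metabolism were read from lists chosen by symbol; their counts stand beside the 5.53% of all tested genes that rose with muscle content and the 12.7% that fell. Subunits encoded by mitochondrial DNA gave no call among the 5 of 13 that passed the filter (ND1, ND2, CYTB, COX1, COX2), with slopes of -0.02 to 0.08. COX1, the catalytic subunit of complex IV, was at 572 to 1174 TPM, while COX3, ATP6, ATP8, ND3, ND4, ND4L, ND5 and ND6 stayed under 1 TPM in every library, so their levels here cannot be read as those of the mitochondrial transcripts. Of 10 genes of the tricarboxylic acid cycle, which feeds the chain with NADH and succinate, 5 rose with muscle content and 0 fell; SUCLA2 had a slope of 0.30 (limma adjusted p = 0.00103) and OGDH of 0.31 (adjusted p = 0.0221). Of 32 further assembly factors of the chain 5 rose (UQCC2, COX17, COX10, TMEM126A, ATPAF1) and 1 fell (SCO2), with UQCC2, needed for complex III assembly, at 0.37 (adjusted p = 0.00721) and TIMMDC1, needed for complex I, at 0.22 (adjusted p = 0.0503).

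Of 16 glycolytic genes 8 rose and 6 fell, among them PFKP at -0.55 (limma adjusted p = 0.0172) and Eno1 at -0.23 (adjusted p = 0.0327). PFKM and ENO3, the muscle forms of the same enzymes, rose with slopes of 0.96 and 0.98; they were singled out after their values were seen, and ENO3 is also on a muscle marker list. Of 16 genes of fatty acid oxidation 1 rose, CPT1B, the muscle form of the enzyme that commits fatty acids to mitochondria (slope 0.63), and 1 fell, ECI1 (-0.22, adjusted p = 0.0371), while SLC25A20, the carnitine carrier, had a slope of -0.09 (adjusted p = 0.329). Of 12 regulators of mitochondrial biogenesis 1 rose, the coactivator PPARGC1A (0.31, adjusted p = 0.0436), while ESRRA (0.02, adjusted p = 0.869) and PPRC1 (0.02, adjusted p = 0.939) did not pass. The counts of the fatty acid oxidation and biogenesis lists are thus 1 gene each way at most, near or below those shares. Of 4 other nuclear genes of the chain, NDUFC1 (0.04, adjusted p = 0.708) and DMAC2L (0.10, adjusted p = 0.357) among them, none was called. Called genes given for small counts were named after their values were seen. In bitten against naive skin limma called 0 of the 95 tested genes of these lists, with 12 at an unadjusted p under 0.05. Of all tested genes 0.0401% were called there and 15.8% had an unadjusted p under 0.05. PFKP had the smallest adjusted p of these lists in limma, 0.114.

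Bitten skin was then compared with naive skin over all 13 libraries, with experiment as a term. limma called 0 of the 72 respiratory chain genes at an adjusted p under 0.05, where 0.0401% of all tested genes were called, and 4 of the 72 (5.56%) had an unadjusted p under 0.05, against 15.8% of all tested genes. COX6B2 had the smallest p: it was at 1.40, 0 and 0 TPM in the naive libraries and between 1.01 and 2.83 TPM in the 10 bitten ones, a log2 difference of 0.97 (SE 0.280, adjusted p = 0.155) with the groups overlapping through naive replicate 1. The others were NDUFAF5 (-0.54, adjusted p = 0.216), NDUFS5 (-0.32, adjusted p = 0.236) and COX6A2 (-0.88, SE 0.404, adjusted p = 0.312), and COX7A1 stood at -0.78 (SE 0.389, adjusted p = 0.352). The median difference was -0.10 over the 72 genes and 0.10 over all tested genes, with 17 genes higher and 55 lower.

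Single groups gave the same absence of calls. In first exposure against naive skin (naive replicates 1 and 2) limma called 0 of 72, with 0.0334% of all tested genes called and 4 of the 72 at an unadjusted p under 0.05 (5.56%, against 13.6% of all tested genes), among them COX6A1 (0.54, SE 0.171, adjusted p = 0.258) and COX7A2 (0.39, SE 0.134, adjusted p = 0.284). In saliva immune against the same naive libraries limma called 0 of 72, with 0.00668% of all genes called and 2 of the 72, COX6A1 and COX7A2, at an unadjusted p under 0.05 (2.78%, against 11.6% of all tested genes). The medians were -0.10 and 0.01 over the 72 genes, beside 0.14 and 0.14 over all tested genes. Neither direction held throughout: the first exposure median was 0.03 without naive replicate 2 and 0.02 without the experiment term. The saliva immune median was -0.11 without naive replicate 1, -0.03 without saliva immune replicate 1 and -0.11 without saliva immune replicate 2, and 0.14 and 0.17 without naive replicate 2 and saliva immune replicate 3. Under median-of-ratios scaling it was -0.17, with 10 genes higher and 62 lower, and in TPM recomputed without the muscle genes -0.09. These comparisons share their naive libraries, so their values are not independent.

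EF19-5 has naive replicate 3 alone, and its spread is taken from the other groups. Against it, limma called 0 of 72 in 2 bites skin (0.0134% of all tested genes called) and 0 of 72 in 3 bites skin (0.00668% called), with 0 and 1 of the 72 at an unadjusted p under 0.05, against 5.87% and 2.34% of all tested genes. In each 8 of the 72 genes were higher and 64 lower, with medians of -0.12 and -0.19 beside -0.06 and 0.08 over all tested genes. COX6A2 differed by -1.36 (SE 0.837, adjusted p = 0.930) and -1.32 (SE 0.837, adjusted p = 1). The contractile share of these 4 libraries, 0.454% to 1.03%, lay below the 1.66% of naive replicate 3, and their keratinocyte share, 3.45% to 5.07%, above its 2.49%; the part of the keratinocyte share in the result was not tested.

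Between bitten groups limma called 0 of 72 genes in saliva immune against first exposure skin (0% of all tested genes called, 0 of the 72 and 351 of all genes at an unadjusted p under 0.05) and 0 of 72 in 3 bites against 2 bites skin (0% called; 1 of the 72 and 1615 of all genes at an unadjusted p under 0.05). In the first, 65 of 72 genes were higher in saliva immune skin, with a median of 0.11 beside 0.02 over all tested genes. Without saliva immune replicate 3, the library with 1.55% contractile transcripts, that median was 0.28 and the count of calls stayed at 0, while without saliva immune replicate 2 the direction turned, with 31 genes higher, 41 lower and a median of -0.03. When libraries were weighted by their estimated quality (limma array weights) 18 of the 72 passed, 15 higher in saliva immune skin and 3 lower, with 2174 of all genes (14.5%). In the second comparison 22 genes were higher in 3 bites skin and 50 lower, with a median of -0.06 beside 0.13.

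With muscle content added to the model the medians against naive skin turned positive, except in saliva immune skin, where the median of 0.01 was above 0 already. This model uses 1 slope on muscle content for both experiments. Fitted alone, the median slope of the 72 genes was 0.19 in CK1 and 0.06 in EF19-5, whose bitten libraries have less muscle than any CK1 library. How far the 2 bites and 3 bites medians below depend on the shared slope was not tested. Against naive skin the median over the 72 genes became 0.13 for all bitten skin, 0.09 for first exposure, 0.22 for saliva immune, 0.22 for 2 bites and 0.07 for 3 bites, while the medians over all tested genes were -0.05, -0.03, -0.02, -0.30 and -0.08. limma called 0 of 72 genes in each of these fits, with 9, 6, 15, 7 and 1 of the 72 at an unadjusted p under 0.05 (12.5%, 8.33%, 20.8%, 9.72% and 1.39%), where the shares of all tested genes were 7.58%, 11.2%, 12.1%, 23.7% and 4.69%. In saliva immune against first exposure skin limma called 0 of 72, with 0% of all tested genes called. There 2 of the 72 (2.78%) had an unadjusted p under 0.05, against 6.93% of all tested genes. Between bitten groups the medians kept their sign. In saliva immune against first exposure skin the median was 0.12, beside 0.02 over all tested genes. In 3 bites against 2 bites skin it went further from 0, from -0.06 to -0.17 (12 genes higher, 60 lower), where the median of all genes was 0.21; limma called 0 of 72 there, while 4.06% of all tested genes were called, and 9 of the 72 (12.5%) had an unadjusted p under 0.05, against 27.7% of all tested genes. COX6A2 went from -0.88 to 0.25 (adjusted p = 0.790) and COX7A1 from -0.78 to 0.28 (adjusted p = 0.790) in bitten against naive skin.

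**Figure D4:**
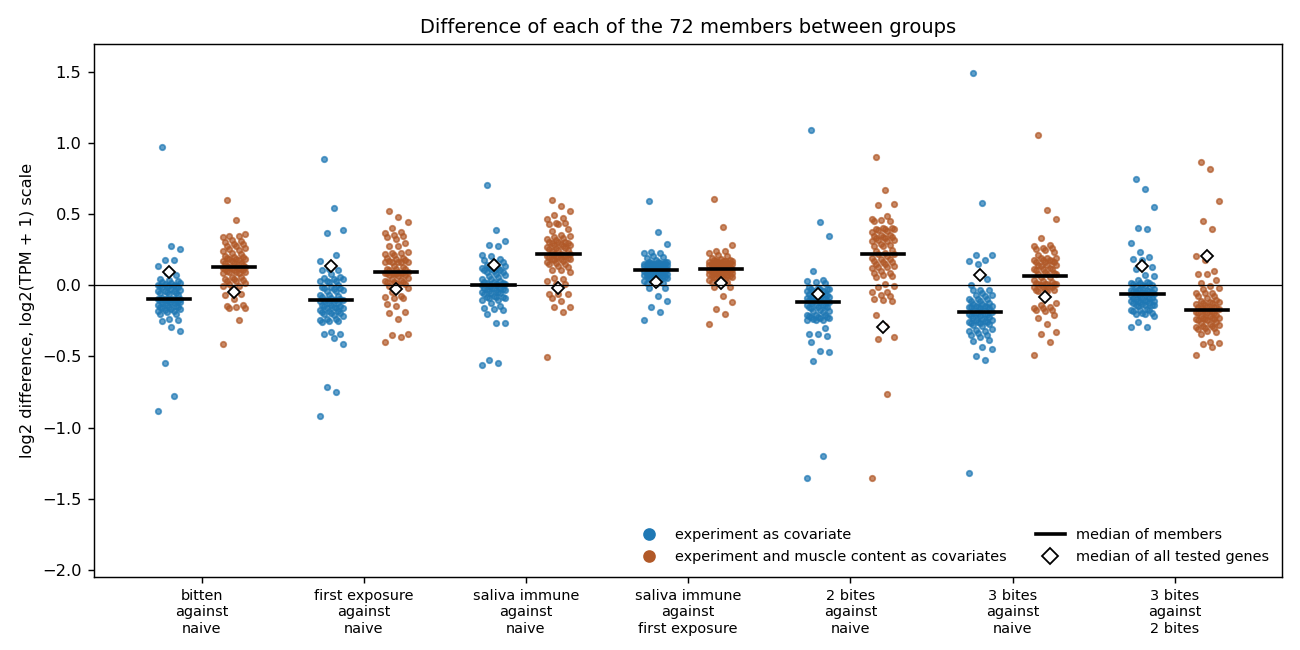
Difference of each of the 72 genes between groups on the log2(TPM + 1) scale, fitted with experiment alone (blue) and with experiment and muscle content (brown); bars are medians of the 72 genes and diamonds medians of all tested genes. In bitten against naive skin the bar moves from -0.10 to 0.13 while the diamond moves from 0.10 to -0.05.

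Read per unit of muscle, COX6A2 was less variable. Its TPM for each 1% of contractile transcripts was 116, 118 and 108 in naive, 127, 149 and 144 in first exposure, 164, 175 and 142 in saliva immune, 147 and 115 in 2 bites and 89.5 and 99.1 in 3 bites skin. All 6 bitten CK1 libraries lay above all 3 naive ones and both 3 bites libraries below them. In the fit with muscle content the difference of COX6A2 was 0.30 in first exposure (SE 0.163, limma adjusted p = 0.529) and 0.50 in saliva immune against naive skin (SE 0.165, adjusted p = 0.336), so neither passed the test.

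COX7A1 for each 1% of contractile transcripts was 52.7, 50.9 and 46.5 TPM in naive, 49.5, 64.2 and 48.4 in first exposure, 71.8, 76.5 and 66.4 in saliva immune, 70.2 and 54.4 in 2 bites and 58.5 and 84.7 in 3 bites skin. The saliva immune libraries lay above all naive and first exposure ones. With muscle content in the fit COX7A1 differed by 0.41 between saliva immune and first exposure skin (SE 0.169, limma adjusted p = 0.719).

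The ratio of slow to fast fibre transcripts also differed between the libraries. The summed TPM of 9 slow fibre genes over that of 11 fast fibre genes was 0.0255, 0.0165 and 0.0427 in naive, 0.129, 0.110 and 0.164 in first exposure, 0.140, 0.0985 and 0.0512 in saliva immune, 0.252 and 0.157 in 2 bites and 0.0630 and 0.152 in 3 bites skin, so all 10 bitten libraries lay above all 3 naive ones. In the 5 EF19-5 libraries and saliva immune replicate 3, which have little muscle, the slow sum stayed between 0.0496% and 0.0665% of the transcripts. The fast sum ran there from 0.264% to 1.25%, so the ratio in these libraries cannot be read as a difference in fibre kind. The part of this ratio in the levels per unit of muscle was not tested. Brown fat is another tissue known for COX7A1: of 7 brown fat genes its defining marker UCP1 was listed at 0 in all 13 libraries, and the 7 together held 0.00672% to 0.0166% of the transcripts. That sum is no measure of brown fat alone, since CPT1B and PPARGC1A rose with muscle content and CIDEA is also on the white adipocyte list. The other 4 genes (UCP1, PRDM16, Dio2 and ELOVL3, of which ELOVL3 held the most) held 0.00235% to 0.00432% in naive, 0.00491% to 0.00651% in first exposure, 0.00337% to 0.00711% in saliva immune, 0.00475% to 0.0103% in 2 bites and 0.00503% to 0.00521% in 3 bites skin. With UCP1 at 0 and ELOVL3 holding the most, the sum of these 4 genes is no measure of brown fat either.

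**Figure D5:**
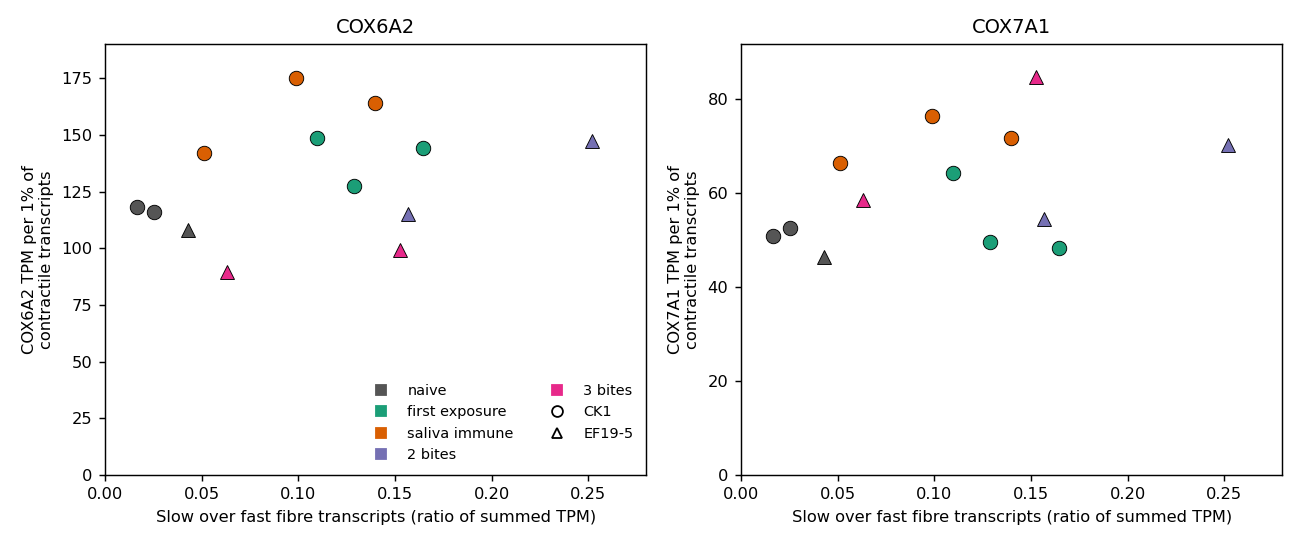
TPM of COX6A2 (left) and COX7A1 (right) for each 1% of contractile transcripts, against the ratio of slow to fast fibre transcripts, with 1 point per library, colour for the group and shape for the experiment. The naive libraries lie at fibre ratios of 0.0165 to 0.0427, left of the bitten libraries at 0.0512 to 0.252.

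Among 9769 genes with a symbol and a mean of at least 5 TPM, those whose log2(TPM + 1) over the 13 libraries was most like that of COX6A2 were CAND2 (Pearson's r 0.998), RBM38 (0.998), RPL3L (0.997), PROB1 (0.996) and VWA7 (0.996). Those most like COX7A1 were LPIN1 (0.995), TXLNB (0.994), MYOM1 (0.994), CMYA5 (0.992) and DOK7 (0.991), of which MYOM1 is on the contractile list. These values describe likeness over libraries that share their muscle content.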

How the data were processed

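Total RNA of guinea pig skin was sequenced in 13 libraries. The authors deposited TPM values for 26855 genes in 1 file, each column summing to 1000000, and TPM keeps no depth. Per the submitters' processing notes, Trimmomatic, StringTie and DESeq were used, with neither version nor role stated. Aligner, build and strand setting were not given in the sources used here. Many respiratory chain genes have near-identical pseudogenes, so their reads could have been split between copies.

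The 14979 genes at 1 TPM or more in 2 or more libraries entered limma 3.58.1 as log2(TPM + 1) (intensity trend, two-sided, Benjamini-Hochberg) in R 4.3.3 with the data.table package (version 1.17.8); a fold change on this scale understates that of low genes. The title prefix entered as experiment. All bitten skin was compared by a bitten term, single groups in a model of 5 groups and the experiment. Muscle content is log2 of the summed TPM of 25 contractile genes plus 1. Isoform ratios were tested by exact permutation in Python 3.11.15 (numpy 2.4.6, pandas 2.3.3, scipy 1.17.1). No 2 libraries were identical. The fits were tested on simulated data.

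The members, gene lists and tests were chosen with earlier results of these data known. Named genes are the isoform pairs, the 2 most abundant members of each complex and the 2 with the smallest p in bitten against naive skin, the 5 smallest p each way for the slope, COX7A2L, ATP5IF1, mitochondrially encoded subunits, 2 genes of each pathway list by that p, and the 5 genes most like COX6A2 and COX7A1; others were named after their values were seen, and some are not reported here. Alternatives were another pseudocount, filters, median-of-ratios scaling, TPM without muscle genes, array weights, no experiment term, muscle content or group as a further term, another muscle list, each experiment alone and each library left out.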

Additional observations from a re-analysis of the deposited data

Results flagged for a closer look

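COX7A2, the common form of its complex IV subunit, moved in opposite directions in the 2 experiments. In CK1 all 6 bitten libraries lay above the naive mean, by 10.4 to 31.7 TPM, and in EF19-5 all 4 bitten libraries lay below the single naive library, by 1.72 to 17.6 TPM. The difference between the 2 effects was -0.50 on the log2(TPM + 1) scale and did not pass the interaction test in limma (unadjusted p = 0.0264, adjusted p = 0.999), which called 0 of the 14979 genes. That test used the same values as the rule, so it is no independent support. COX6A1, which did not meet the rule, had a larger difference, -0.61 on the same scale. In CK1 the neutrophil (0.0220% to 0.225% of the transcripts), monocyte and macrophage (0.0246% to 0.0607%) and white adipocyte genes (0.341% to 0.904%) also lay above both naive libraries in all 6 bitten ones. The keratinocyte, fibroblast, T cell and endothelial genes overlapped between bitten and naive libraries there. The part of these cells in the COX7A2 values was not tested. The bitten groups differ between the experiments, so experiment and exposure history cannot be told apart here.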

How the results depend on the processing

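The count of respiratory chain genes called for the slope stayed within 1.5 times of 29 in 18 alternatives and moved in 6. In group comparisons, where the reported counts are all 0, it was 0 again in 152 and moved in 1. Median differences stayed within the replicate SD of 0.181 in 146 and moved in 7, and single genes kept direction and side of the threshold in 761, lost the call in 173, gained it in 35 and reversed in 9. With muscle content as a covariate the medians were 0.127 (bitten), 0.091 (first exposure), 0.220 (saliva immune), 0.220 (2 bites) and 0.070 (3 bites) against naive skin, and COX6A2 and COX7A1 reversed to 0.246 and 0.280 in bitten skin. The 2 bites median was -0.329 without the experiment term, the median of 3 bites against 2 bites -0.246 under median-of-ratios scaling, and array weights gave 18 calls in saliva immune against first exposure; the cause was not tested. The slope count was 57 without the experiment term, where 6042 of all 14979 tested genes were called. It was 0 in EF19-5 alone, where fewer libraries are fitted and 0 of all tested genes were called. With a library left out it ran from 3 (5.16% of all tested genes called) to 35 (27.6% called). The NDUFA4L2 to NDUFA4 ratio in bitten skin ran from -0.085 (without naive replicate 2) to 0.438 with a library left out. Correlations with muscle content that lost the call were COX4 at -0.487 with a pseudocount of 0.1 and -0.643 in CK1, and NDUFA4 at -0.599 without the 2 farthest libraries. Slopes that reversed were COX6A1 (0.041), COX7A2 (0.044) and ATP5IF1 (-0.020) in EF19-5 alone, COX7A2 (0.060), COX8A (0.003) and COX7A2L (0.036) under median-of-ratios scaling, and COX7A2L (0.015) without the experiment term. Median-of-ratios scaling brought the all-gene median of first exposure against naive skin from 0.14 to 0.0002 and that of the members from -0.10 to -0.27. Without naive replicate 3, 2 bites and 3 bites skin have no naive library of their experiment and gave no value against naive skin. No paired analysis was possible because the labels name no animal shared between groups. The titles carry suffixes that the labels do not explain, and replicates are numbered here in the order of the deposited samples. TPM carry no depth, so the precision of low genes such as COX6B2 and COX4I2 cannot be judged.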
